A study of Peromyscus leucopus and Peromyscus maniculatus with 24 samples.

Results

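Potassium channel genes were described in brain RNA of young and old deer mice. They were taken as every gene whose symbol starts with KCN in the count table of either species, with a single exception. In all, 95 genes were found among the 28586 genes of both tables, 90 of 25252 in P. leucopus and 92 of 16899 in P. maniculatus, with 87 in both. A mean of at least 1 CPM (counts scaled to the library's total on named genes) in either species was reached by 81 of them, and the statistics below refer to these. The other 14 were KCNA7, KCNA10, KCNE1, KCNE1L, KCNE4, KCNJ1, KCNJ15, KCNK16, KCNK17, KCNK18, KCNMB3, KCNQ1, KCNU1 and KCNV2. The genes nearest to the limit were KCNJ15, left out at a mean of 0.997 CPM in P. maniculatus, and KCNH8, kept at 1.02 CPM in P. leucopus.

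Potassium channels let potassium leave the cell and so bring the membrane back to rest after an action potential. Voltage-gated (Kv) channels open on depolarization, calcium- and sodium-activated channels open when these ions enter the cell, and inward rectifiers and tandem-pore channels set the resting potential of neurons and glia. In brain, most members belong to particular neurons, while some are known from glia, choroid plexus or vessels.

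The brain libraries came from 24 outbred animals of a pair of captive stocks, with 1 library for each animal and sections of whole brain as the tissue. P. leucopus (LL stock) gave 6 young animals of 7 months and 6 old animals of 28 months. P. maniculatus (BW stock, P. maniculatus bairdii) gave 6 young animals of 7 months and 6 old animals, which were 25, 26, 28 or 29 months old. The labels name no treatment and no engineered allele. Libraries of P. leucopus held 10241267 to 19461818 counts on named genes, against 5766964 to 8804417 for P. maniculatus, so that counting error was smaller in the former.

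Libraries of a group did not hold the same mixture of brain cells, as judged from sums of marker genes in CPM. The summed level of 6 cerebellar granule cell markers reached 3395 and 2369 CPM in old P. leucopus 4 and 6 and 2105 CPM in young P. maniculatus 3, and lay between 23.9 and 389 CPM in the other libraries. All 6 oligodendrocyte markers of P. leucopus summed to between 14908 and 19768 CPM in young animals 1 to 4, to 6466 and 5194 CPM in young animals 5 and 6, and to between 2678 and 7513 CPM in the old ones. The 5 markers of cortical and hippocampal excitatory neurons summed to between 28.0 and 311 CPM in young P. leucopus 1 to 4, to 1530 and 887 CPM in young animals 5 and 6, and to between 527 and 2017 CPM in the old ones. In P. maniculatus the same sum lay between 752 and 2442 CPM. No marker of these lists that is in a table was at 0 throughout. Old P. maniculatus 3 and 4 were nearly identical (chi-square per gene of 1.46, against 8.82 for the next closest pair of that species), and results were also computed with these libraries summed as 1 animal. In such bulk samples, fewer cells of a type and less RNA per cell cannot be told apart.

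The largest share of potassium channel RNA belonged to a few subfamilies. Levels between genes were compared as RPKM, which is CPM divided by the gene length in kilobases. RPKM values of the species are on different scales, since the table of P. leucopus gives whole exon lengths (median of 3534 bases for the members) and that of P. maniculatus mostly coding lengths (1466 bases, with 92.4% of the members' lengths a multiple of 3, against 34.4% in P. leucopus). Over the 10999 shared genes of at least 1 CPM in both species, RPKM was lower in P. leucopus by a median of -1.07 on the log2 scale. Within P. leucopus the members summed to 1008 ± 135 RPKM in young and 1162 ± 112 RPKM in old animals (mean ± SD, n = 6), and within P. maniculatus to 2397 ± 327 and 2349 ± 326 RPKM.

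Among the voltage-gated channels, the fast-spiking Kv3 subfamily had the highest summed level in both species. It summed to 159 ± 39.0 RPKM in young and 176 ± 116 RPKM in old P. leucopus, and to 300 ± 180 and 223 ± 53.2 RPKM in P. maniculatus. KCNC1, the main Kv3 channel of fast-firing neurons, led it with a mean of 75.2 RPKM in P. leucopus and 96.7 RPKM in P. maniculatus. The Kv7 channels, which carry the M-current that restrains repetitive firing, summed to 60.1 ± 22.9 and 65.9 ± 10.7 RPKM in young and old P. leucopus and to 82.5 ± 22.7 and 80.4 ± 7.08 RPKM in P. maniculatus. Kv1 channels, which sit at axons and set spike threshold, summed to 40.6 ± 3.72 and 32.1 ± 6.59 RPKM in P. leucopus and to 84.0 ± 18.8 and 69.4 ± 12.1 RPKM in P. maniculatus, and KCNA6 was the highest member in both. KCNA2, an axonal Kv1 channel, has a row only in P. maniculatus (16.6 ± 8.42 RPKM in young and 11 ± 3.68 RPKM in old animals) and was not analysed here in P. leucopus.

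The A-type Kv4 channels, which dampen dendritic excitation, summed to 32.2 ± 8.80 and 43.0 ± 17.8 RPKM in young and old P. leucopus and to 62.7 ± 21.5 and 42.7 ± 13.3 RPKM in P. maniculatus, and KCND2 was the highest member in both. KCNB2, a delayed-rectifier Kv2 channel, had a mean of 2.73 RPKM in P. leucopus and of 7.92 RPKM in P. maniculatus. The EAG, ERG and ELK channels were led by KCNH2, the ERG1 channel, in P. leucopus (24 RPKM) and by KCNH3, an ELK channel of forebrain neurons, in P. maniculatus (98.2 RPKM). KCNH3 was not analysed here in P. leucopus. Electrically silent Kv subunits, which act only together with Kv2 subunits, were led by KCNF1 in both species (16 and 50.2 RPKM).

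Of the ion-activated channels, KCNT1, the sodium-activated Slack channel, was higher per length than the others (25.3 RPKM in P. leucopus and 44.5 RPKM in P. maniculatus), and KCNN1 led the small-conductance calcium-activated SK channels (12.5 and 29.7 RPKM). Inward rectifiers summed to 165 ± 27.7 and 186 ± 16.6 RPKM in young and old P. leucopus and to 378 ± 75.7 and 356 ± 62.5 RPKM in P. maniculatus, led by KCNJ4, a strong rectifier of forebrain neurons (36.1 and 136 RPKM). Tandem-pore channels, led by the weakly rectifying KCNK1 (66.2 and 118 RPKM), summed to 116 ± 15.7 and 108 ± 23.5 RPKM in P. leucopus and to 230 ± 57.7 and 195 ± 22.6 RPKM in P. maniculatus.

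Auxiliary subunits were among the most abundant members per length. The Kv beta subunits, which bind Kv1 channels in the cytoplasm, summed to 176 ± 29.9 and 180 ± 21.1 RPKM in young and old P. leucopus and to 374 ± 68.7 and 410 ± 133 RPKM in P. maniculatus, and KCNAB2 was the highest of all members in both species (104 and 247 RPKM). The KChIP calcium sensors of Kv4 summed to 78.4 ± 42.8 and 133 ± 23.9 RPKM in young and old P. leucopus and to 323 ± 56.8 and 348 ± 52.3 RPKM in P. maniculatus, led by KCNIP2 (51.4 and 156 RPKM). KCNMB4, the neuronal beta subunit of the large-conductance BK channel, led its group with 23.5 and 137 RPKM. MinK-related subunits summed to 2.90 ± 2.01 and 1.71 ± 0.429 RPKM in young and old P. leucopus, led by KCNE5 (1.06 RPKM), and to 6.03 ± 2.33 and 7.18 ± 2.56 RPKM in P. maniculatus, led by KCNE3 (4.68 RPKM). These sums were not tested between groups, and no statement of a change is made from them.

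**Figure D1:**
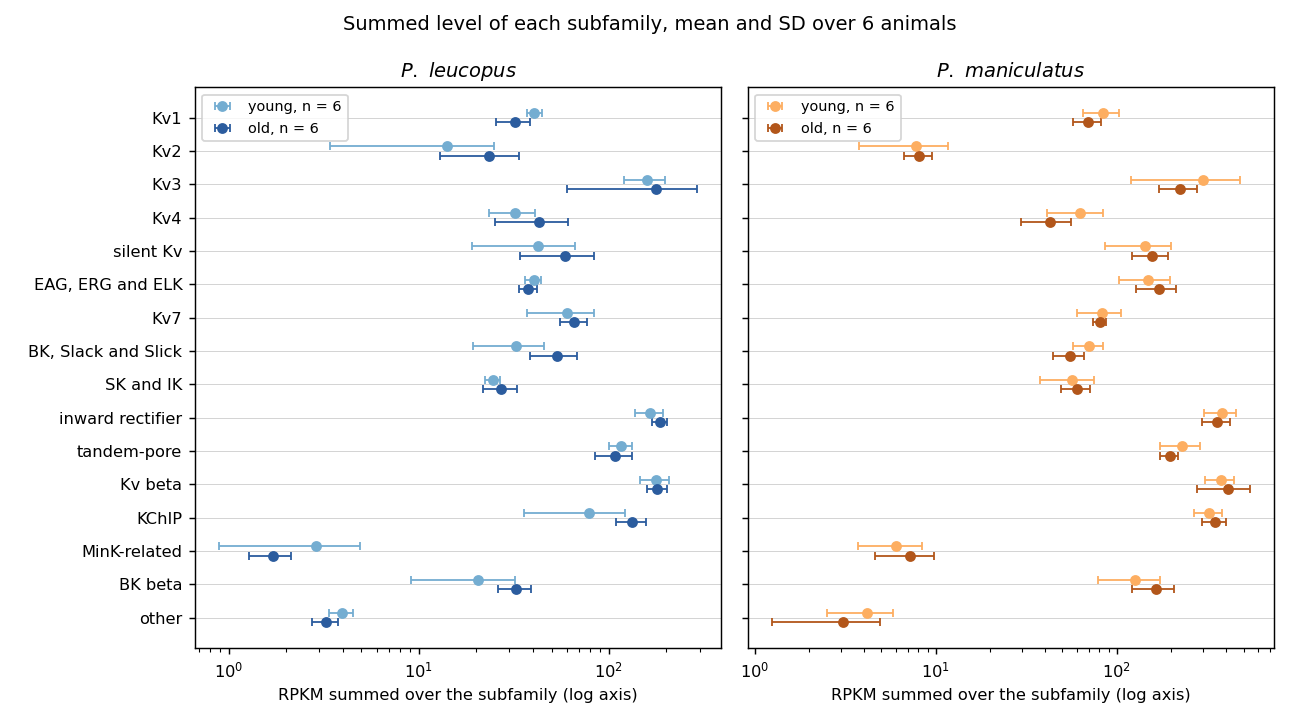
RPKM summed over the members of each subfamily (log axis), with points for the mean and bars for the SD of 6 animals, in young (light) and old (dark) animals of each species. Kv beta, inward rectifier and Kv3 genes had the highest sums in P. leucopus, and the SD of KChIP was 42.8 RPKM in its young animals.

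Within groups, the members differed between animals more than most genes did. The median coefficient of variation (CV) over 6 animals was 42.2% in young and 42.8% in old P. leucopus and 45.1% and 33.4% in P. maniculatus. For all genes of at least 1 CPM it was 21.5%, 22.9%, 23.1% and 21.9% in the same order. Counting error alone would give the members a median CV of between 4.96% and 7.95%. The lowest CV was 13.9% for KCNRG in young P. leucopus, 16.4% for KCNC2 in young P. maniculatus and 5.13% for KCND1 in old P. maniculatus. The highest was 167% for KCNJ13 in young P. leucopus. KCNG4, a silent subunit, had the highest in the other groups, with 133%, 225% and 139%. The naming of KCND1 and KCNG4 came after a look at their values. The plot of every member in every animal shows the same animals apart in many rows: of 75 members, young P. maniculatus 3 was the highest animal of its group for 22 and the lowest for 26, and of 76 members, old P. leucopus 4 was the highest for 18 and the lowest for 31, and young P. leucopus 5 the highest for 24 and the lowest for 23.

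**Figure D2:**
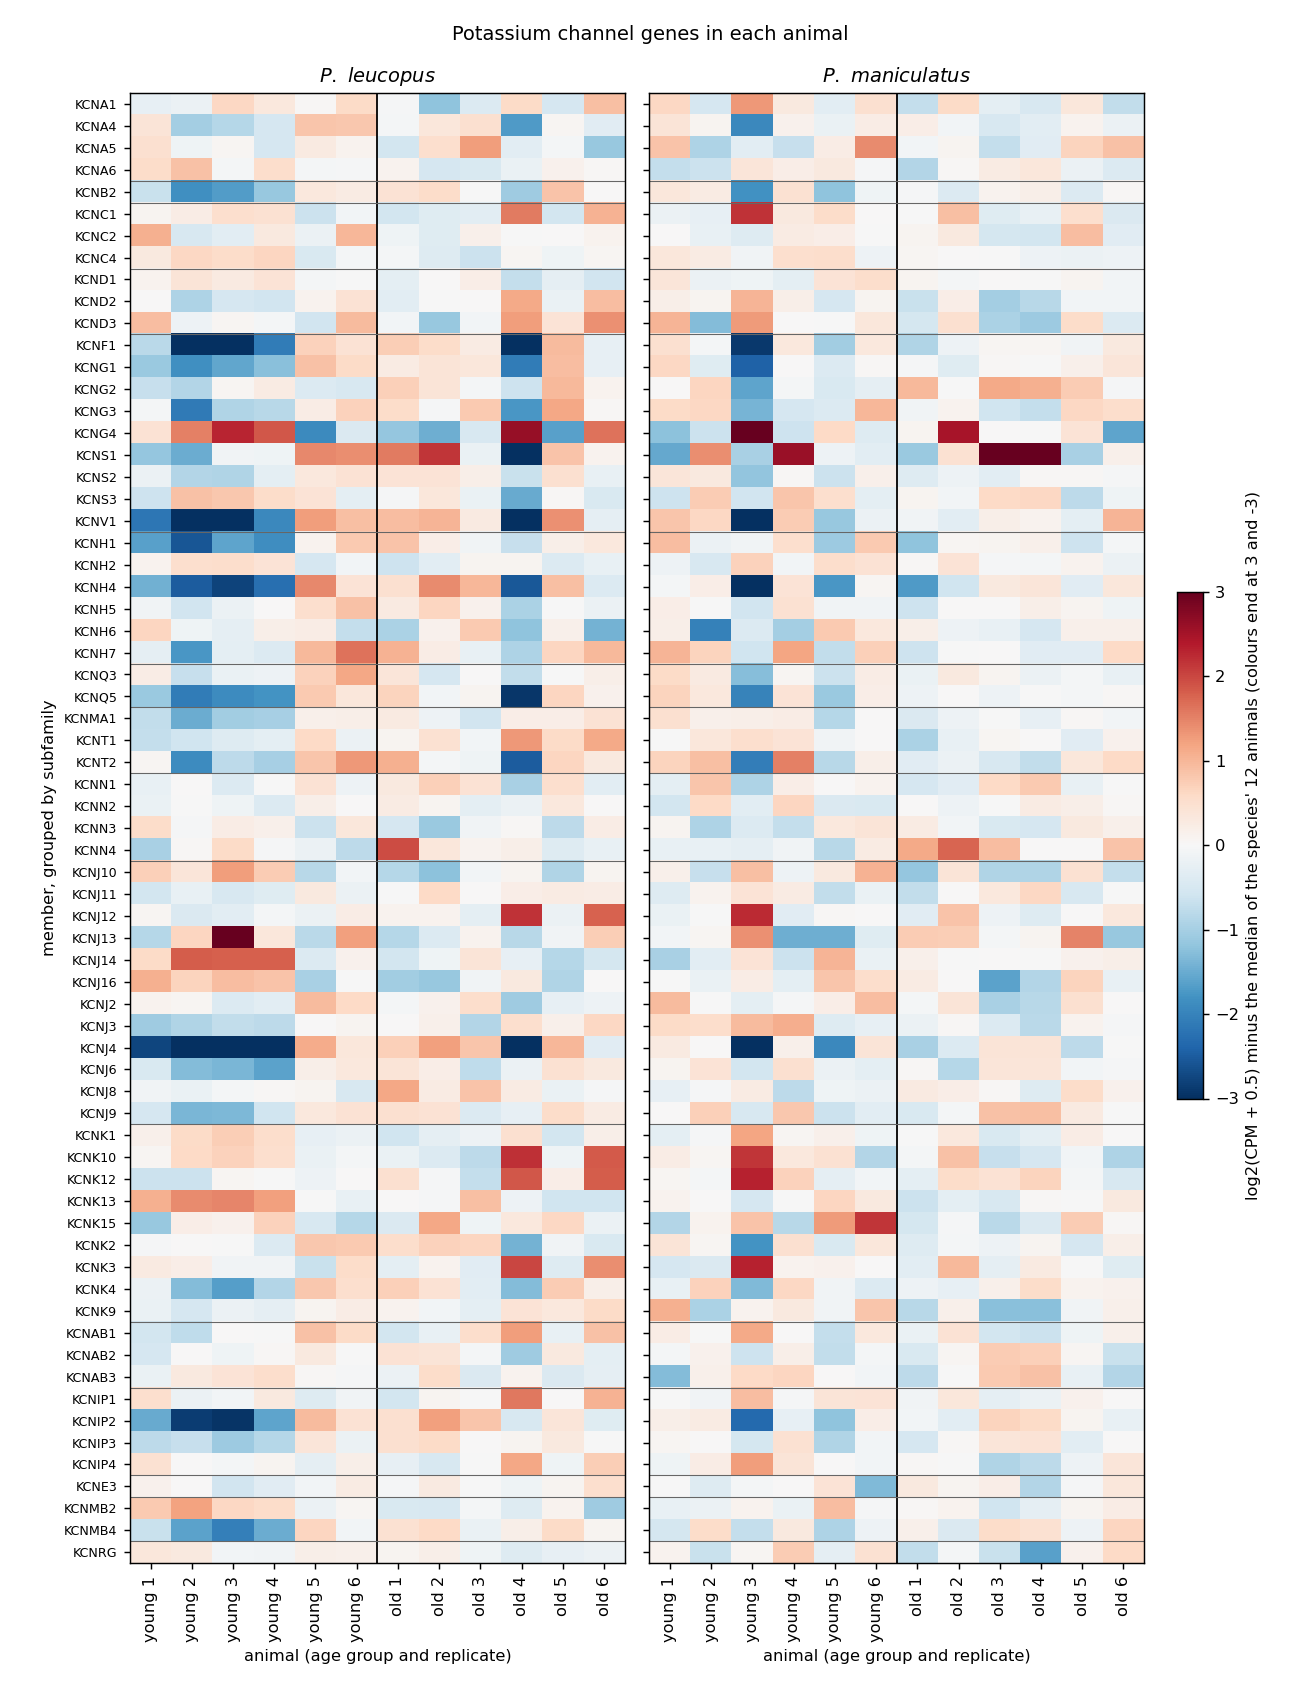
Heat map of members with at least 1 CPM in both species (rows, grouped by subfamily) in the 12 animals of each species (columns). Colour gives log2(CPM + 0.5) minus the species median of that member. Old P. leucopus 4 and young P. maniculatus 3 differ from their groups in many rows, and young P. leucopus 1 to 4 are low for KCNJ4, KCNF1 and KCNIP2.

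Some members were high in the animals in which the markers of a cell type were high, though not in every animal. KCNJ4 lay between 1.19 and 243 CPM in young P. leucopus (median 14.7) and between 3.08 and 265 CPM in old ones (median 191). Animals 1 to 4 of the young and animal 4 of the old lay between 1.19 and 16.3 CPM, and the other 7 P. leucopus between 89.1 and 265 CPM. The sum of cortical and hippocampal markers was between 28.0 and 665 CPM in those 5 animals and between 527 and 2017 CPM in the 7 others, so these ranges overlapped. KCNIP2 (15.7 to 43.3 CPM) and KCNF1 (3.30 to 22.9 CPM) were likewise low in young animals 1 to 4, against 170 and 241 CPM and 54.3 and 65.8 CPM in young animals 6 and 5. In P. maniculatus, KCNJ4 was lowest in young animal 3 at 11.7 CPM, with 54.5 CPM in young animal 5 and between 106 and 275 CPM in the 10 others. There KCNJ4 did not follow the cortical and hippocampal sum. Young animal 3 had a sum of 1031 CPM, above the 752 CPM of young animal 5 and near the 1060 CPM of young animal 6, in which KCNJ4 was 273 CPM.

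KCNC1, which cerebellar neurons are known to express at high levels, was highest in the 3 libraries with high granule cell sums. KCNC1 measured 665 and 462 CPM in old P. leucopus 4 and 6, and between 142 and 315 CPM in the other 10. In young P. maniculatus 3 it measured 554 CPM, and its highest value in the other animals of that species was 231 CPM. The tandem-pore channel KCNK10 was high in the same libraries, with 54.5 and 42.5 CPM in old P. leucopus 4 and 6 and 14 CPM in young P. maniculatus 3. KCNK12, of the same subfamily, measured 48.6, 46.5 and 43.6 CPM there. KCND2 and KCNIP4 reached 337 and 191 CPM in old P. leucopus 4, their highest values in that species.

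KCNJ13, an inward rectifier of the choroid plexus, measured 29.0 CPM in young P. leucopus 3 and between 0.658 and 4.47 CPM in the other 11 animals. The sum of 5 choroid plexus markers in these animals was 9889 CPM in young animal 3 and between 5.42 and 848 CPM elsewhere. In P. maniculatus, KCNJ13 lay between 1.54 and 15.3 CPM beside choroid plexus sums of 104 to 5332 CPM. KCNJ14, a strong inward rectifier, measured 13.3, 31.9, 31.6 and 31.7 CPM in young P. leucopus 1 to 4, 6.51 and 9.60 CPM in young animals 5 and 6, and between 4.61 and 11.6 CPM in the old ones. KCNJ10, the Kir4.1 channel of astrocytes and oligodendrocytes, measured between 84.4 and 155 CPM in young P. leucopus 1 to 4 and between 27.4 and 69.3 CPM in the other 8 animals. Both were high in the libraries with high oligodendrocyte sums. Astrocyte sums of 6 markers were 3335 to 4228 CPM in young animals 1 to 4 and 3475 to 7130 CPM in the others. These markers did not move together. From young to old P. leucopus, the mean fell for GJA1 (273 to 179 CPM), AQP4 (457 to 374 CPM) and ALDH1L1 (64.9 to 58.0 CPM). It rose for GFAP (364 to 794 CPM), SLC1A3 (427 to 673 CPM) and SLC1A2 (2236 to 2449 CPM). The part of cell mixture in the differences of the members named here was not tested.

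**Figure D3:**
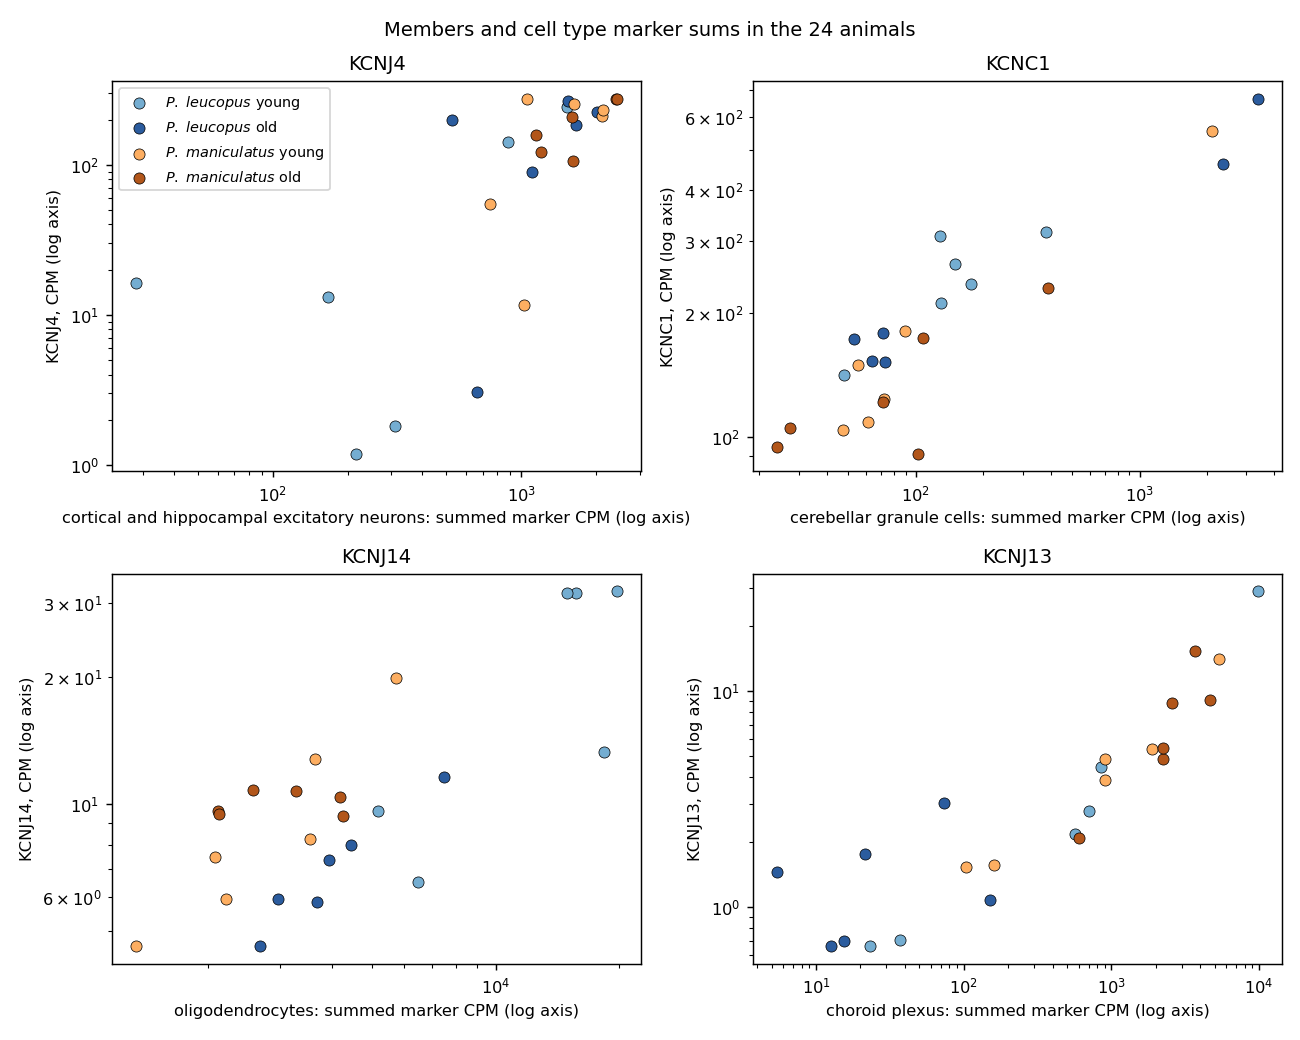
CPM of KCNJ4, KCNC1, KCNJ14 and KCNJ13 (vertical, log axis) against the summed CPM of a cell type's markers (horizontal, log axis), with a point for each of the 24 animals coloured by species and age. The highest KCNC1 values of the species, 665 and 554 CPM, belong to animals with granule cell sums of 3395 and 2105 CPM, and the highest KCNJ13 value, 29.0 CPM, to the animal with a choroid plexus sum of 9889 CPM.

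To see whether potassium channel RNA differed with age, old and young P. leucopus were compared. No member passed the test, and neither did any other gene: 0 of 14816 genes (0%) were called by edgeR's quasi-likelihood test at an adjusted p under 0.05, and 0 of the 75 members tested. At an unadjusted p under 0.05 there were 19 members (25.3%), of which 8 were higher and 11 lower in old animals, and 2768 genes (18.7%). DESeq2 called 3 members and 863 genes. The median log2 difference was 0.28 for the members and 0.02 for all genes, and its median size was 0.49 against 0.21. Of 14768 genes with at least 1 CPM, 0.860% had young and old animals that did not overlap in CPM, and of 76 members there were 0. In simulated data, the test called 54.5% of genes changed 2-fold in this design. Those genes were drawn from all genes tested, with noise independent between genes. The value is thus not the share for the members, whose median CV in young animals was 42.2% against 21.5% for all genes.

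KCNJ14 had the lowest p. It lay between 6.51 and 31.9 CPM in young P. leucopus (median 22.4) and between 4.61 and 11.6 CPM in old ones (median 6.65). Of the young animals 4 stood above every old one, and young animals 5 and 6 lay among the old. The log2 difference was -1.48 ± 0.40 (SE), with an adjusted p of 0.120 in edgeR. KCNMB2, a BK beta subunit that makes the channel inactivate, lay between 5.33 and 14.6 CPM in young animals (median 9.35) and between 2.64 and 6.56 CPM in old ones (median 4.38). Only young animals 5 and 6 overlapped the old group. Its log2 difference was -0.95 ± 0.27 (adjusted p = 0.132).

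KCNT1 lay between 78.9 and 197 CPM in young P. leucopus (median 103) and between 123 and 323 CPM in old ones (median 187). The highest young value, in animal 5, stood above 4 of the 6 old ones, and the 5 other young animals lay below all of them. The log2 difference was 0.87 ± 0.28 (adjusted p = 0.153 in edgeR). KCNIP3, a calcium sensor of the KChIP family, lay between 55.8 and 152 CPM in young animals (median 71.0) and between 118 and 178 CPM in old ones (median 137), and again only the value of young animal 5 lay within the old range. It differed by 0.73 ± 0.25 (adjusted p = 0.171). KCNK12 lay between 8.12 and 13.5 CPM in young and between 7.70 and 48.6 CPM in old animals, with the values of 48.6 and 46.5 CPM in the libraries rich in granule cell markers, and it differed by 1.15 ± 0.41 (adjusted p = 0.179).

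These results turned on a single young library. Without young P. leucopus 5, which had the highest striatal marker sum of its species (1777 CPM), 8 of 76 members (10.5%) and 963 of 14958 genes (6.44%) were called. The oligodendrocyte and cortical sums of this library (6466 and 1530 CPM) lay within the range of the old animals, and without it 4 of the 5 young libraries were those with oligodendrocyte sums of 14908 CPM or more. KCNIP3 (0.99 ± 0.19, adjusted p = 0.0211), KCNT1 (1.13 ± 0.24, 0.0269), KCNMB4 (1.36 ± 0.34, 0.0385) and KCNJ11 (0.64 ± 0.14, 0.0298), the pore of the ATP-sensitive channel, were then higher in old animals in edgeR. KCNJ14 (-1.66 ± 0.35, adjusted p = 0.0245), KCNMB2 (-1.06 ± 0.26, 0.0370), KCNJ16 (-1.09 ± 0.27, 0.0376), which pairs with KCNJ10, and KCNJ10 itself (-1.02 ± 0.27, 0.0483) were lower. KCNJ14, KCNMB2, KCNJ16 and KCNJ10 were highest in those 4 young libraries, and KCNIP3, KCNT1, KCNMB4 and KCNJ11 were lowest in the same 4. The highest values of the latter there were 73.4, 107, 33.5 and 28.7 CPM. Their lowest values in the other P. leucopus were 106, 116, 46.7 and 30.1 CPM. The part of cell mixture in these 8 calls was not tested. Young P. leucopus 5, KCNJ11 and KCNJ16 are singled out here with the results in view. Leaving out any other P. leucopus called 0 members. Without the libraries rich in granule cell markers 0 members were called.

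By subfamily, 9 of the 13 inward rectifiers tested had an unadjusted p under 0.05 in P. leucopus, against 18.7% of all genes, and none had an adjusted p under 0.05. Of these 9, 4 had positive and 5 negative values. The subfamily is singled out here because it had the most such members. The 9 are not independent, since KCNJ14, KCNJ10 and KCNJ16 were all highest in young animals 1 to 4. KCNJ8, the ATP-sensitive channel of pericytes and smooth muscle, lay between 1.72 and 2.75 CPM in young animals and between 2.19 and 6.36 CPM in old ones (log2 difference of 0.70 ± 0.28, edgeR adjusted p = 0.210). KCNJ3, a G protein-gated channel, lay between 65.5 and 146 CPM and between 74.3 and 212 CPM (0.67 ± 0.27, adjusted p = 0.221). Its partner KCNJ6 lay between 5.75 and 23.1 CPM and between 10.8 and 25.5 CPM (0.66 ± 0.38, adjusted p = 0.362). KCNJ13 differed by -2.16 ± 0.86 (adjusted p = 0.212), and by -0.58 without young animal 3. KCNJ4, at 1.19 ± 1.15, had the largest standard error among these genes.

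None of the Kv channels passed the test in P. leucopus. KCNA6 lay between 102 and 196 CPM in young and between 74.7 and 116 CPM in old animals (-0.44 ± 0.18, edgeR adjusted p = 0.227). KCNB2 differed by 0.83 ± 0.45 and KCNQ3 by -0.36 ± 0.30. KCNC1 differed by 0.29 ± 0.37, and by -0.09 without old animal 4. Of the tandem-pore channels, KCNK13, a channel of microglia, lay between 6.28 and 21.4 CPM in young and between 4.70 and 14.2 CPM in old animals (-0.96 ± 0.35, adjusted p = 0.186), and KCNK2 differed by -0.09 ± 0.35. The microglial markers summed to between 150 and 196 CPM in young and between 86.3 and 465 CPM in old animals. KCNK13 was highest in young animals 1 to 4, the libraries with oligodendrocyte sums of 14908 CPM or more. Its highest value elsewhere, 14.2 CPM, was in old animal 3, which had the highest oligodendrocyte sum of the old animals (7513 CPM). Old animal 1, with the microglial sum of 465 CPM, had 7.53 CPM of KCNK13. Whether cell mixture played a part was not tested.

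In P. maniculatus the same comparison also called no member. The count was 0 of 12384 genes (0%) and 0 of the 72 members tested. An unadjusted p under 0.05 was found for 5 members (6.94%), 3 higher and 2 lower, and for 1279 genes (10.3%), and DESeq2 called 0 members and 20 genes. The median log2 difference was near 0 for members and for all genes, with 35 members positive and 37 negative. Young and old animals did not overlap for 0.381% of 12871 genes and for 0 of 75 members. No setting tried called a member in this species.

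KCNN4, the intermediate-conductance calcium-activated channel known from blood cells and microglia, had the lowest p in P. maniculatus. It lay between 0.732 and 2.1 CPM in young (median 1.38) and between 1.70 and 6.93 CPM in old animals (median 3.58). A pair of old animals, at 1.70 CPM, lay within the young range. The log2 difference was 1.40 ± 0.37 (edgeR adjusted p = 0.467). In P. leucopus it lay between 1.23 and 4.57 CPM in young and between 2.1 and 12.7 CPM in old animals, and differed by 0.86 ± 0.48, or by 0.22 without old animal 1, which also had the highest microglial sum of its species, 465 CPM. Microglial markers in P. maniculatus summed to between 113 and 316 CPM in young and between 251 and 308 CPM in old animals.

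KCNG2, a silent Kv subunit, lay between 4.73 and 23.7 CPM in young P. maniculatus and between 14.6 and 33.8 CPM in old ones (0.97 ± 0.34). KCNJ3 lay between 30.5 and 86.2 CPM and between 22.8 and 43.4 CPM (-0.67 ± 0.24), KCND2 between 50.5 and 146 CPM and between 35.2 and 82.4 CPM (-0.56 ± 0.24), and KCNMB1, the BK beta subunit of smooth muscle, between 0.800 and 2.26 CPM and between 1.28 and 3.41 CPM (0.74 ± 0.34). All of these had an edgeR adjusted p of 0.467 and groups that overlapped. KCNC1 (-0.54 ± 0.40) and KCNK12 (-0.53 ± 0.45) turned to 0.08 and 0.19 without young animal 3. KCNK1 (-0.22 ± 0.23) and KCNAB2 (0.42 ± 0.28) had an adjusted p of 0.665 and 0.505.

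**Figure D4:**
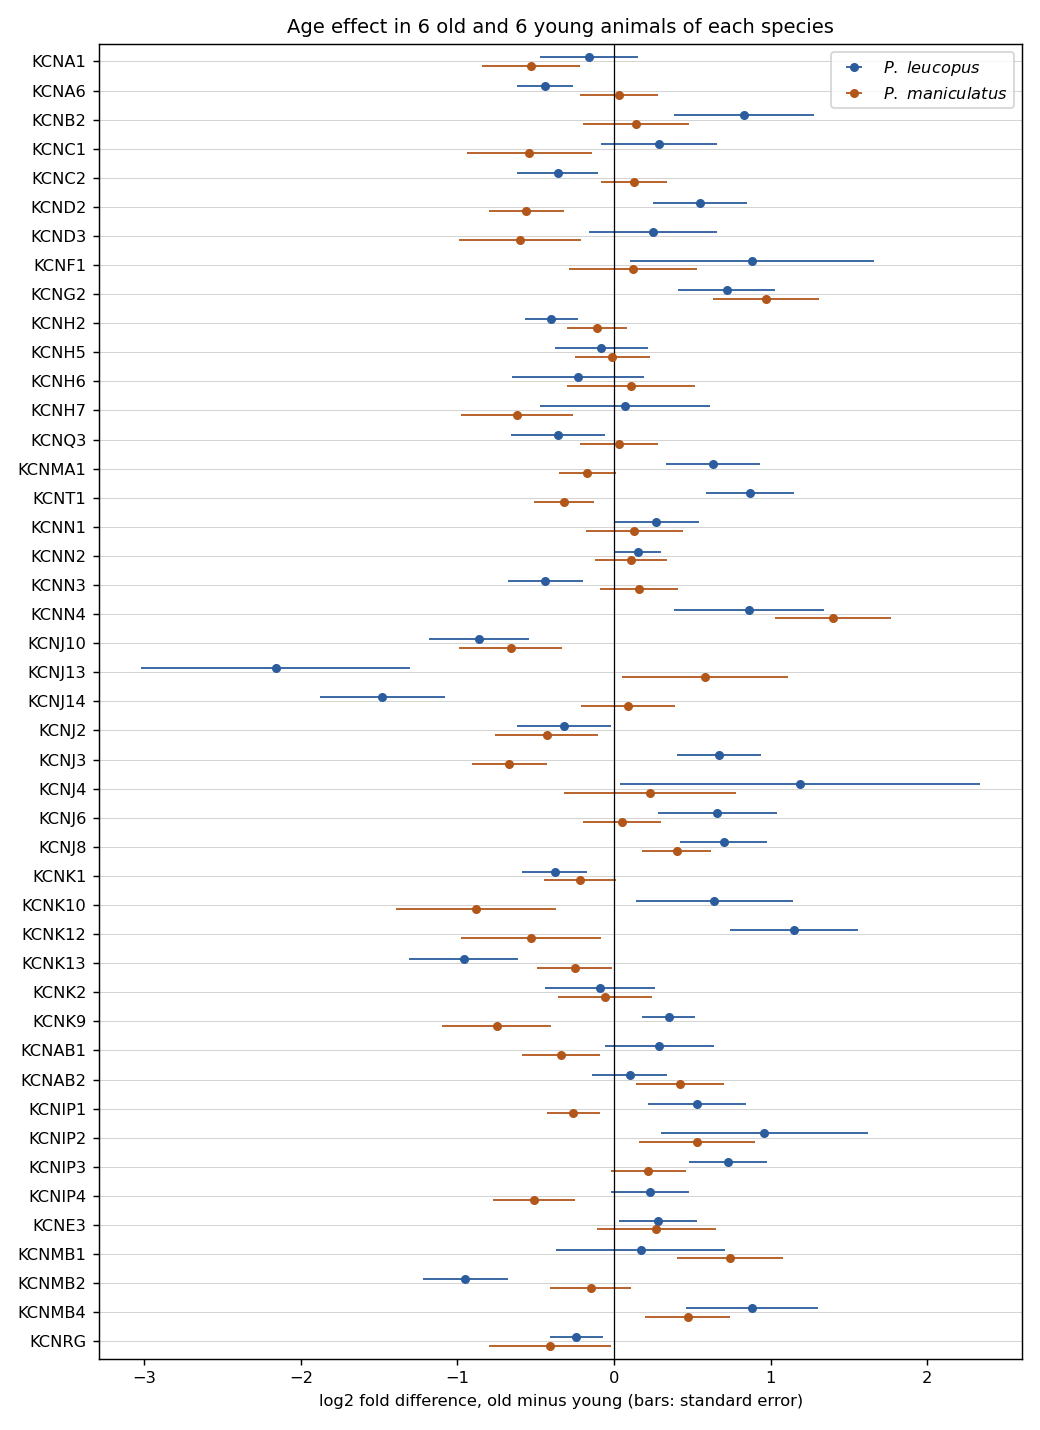
Log2 difference of old minus young animals (horizontal; bars are the standard error, 6 against 6 animals) for the named members tested in both species (rows), P. leucopus in blue and P. maniculatus in orange. No point passed the test, and KCNT1 lies at 0.87 in P. leucopus and at -0.32 in P. maniculatus.

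Whether the difference with age itself differed between species was tested as an interaction over all 24 animals. It was called for 0 of 11659 genes (0%) and 0 of 75 members, and DESeq2 called 0 members and 69 genes. An unadjusted p under 0.05 was reached by 12 members (16%) and 1759 genes (15.1%), so the members' share was near that of all genes. KCNJ3 had the lowest p, with a difference of 1.36 ± 0.38 between the log2 age effects of P. leucopus and P. maniculatus (edgeR adjusted p = 0.205). Its own values were 0.67 and -0.67. KCNT1 followed with 1.21 ± 0.35 (0.205), from 0.87 and -0.32. The value was -1.55 ± 0.51 (0.218) for KCNJ14, 1.12 ± 0.40 (0.231) for KCND2 and 1.12 ± 0.40 (0.233) for KCNK9, an acid-sensitive tandem-pore channel. Old P. leucopus 4 and 6, rich in granule cell markers, were highest of their species for KCNT1 (323 and 286 CPM) and KCND2 (337 and 293 CPM). So they were for KCNJ3 (195 and 212 CPM) and KCNK9 (41.9 and 47.4 CPM), but not for KCNJ14. The likewise rich young P. maniculatus 3 was highest of its species for KCNT1 (238 CPM) and KCND2 (146 CPM) only. The part of cell mixture in these values was not tested. KCNMA1, the BK pore, lay between 82.1 and 259 CPM in young and between 155 and 313 CPM in old P. leucopus, against 29.5 to 75.8 CPM and 39.9 to 55.5 CPM in P. maniculatus, with an interaction of 0.83 ± 0.37 (adjusted p = 0.293). No difference between the species in the effect of age was thus shown.

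Levels were then compared between species, per length and over both ages, for the 70 members with at least 1 CPM in both. Of all 11659 shared genes tested, 59.6% were called by edgeR, 29.6% higher and 30.0% lower in P. leucopus. Of the members 36 were called (51.4%), 22 higher (31.4%) and 14 lower (20%). The median log2 difference was 0.24 for the members and 0.01 for all genes. Species, genome, annotation and count table cannot be told apart in this comparison. The fit sets the middle of all genes near 0, so that each difference is relative to the shift in RPKM of -1.07 given above. Without gene length the split became 36 members higher (51.4%) and 4 lower (5.71%), against 35% and 33.6% of all genes. In all, 25 members were called in the same direction both ways, 21 higher and 4 lower in P. leucopus. This count was not made over all genes, so it cannot be read as particular to the members.

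KCNK15, a tandem-pore channel, differed most. It ran from 3.59 to 19.4 CPM in the 12 P. leucopus, against 0.139 to 4.68 CPM in the 12 P. maniculatus, and only young P. maniculatus 6 lay within the range of P. leucopus. Its mean was 3.90 RPKM in young and 5.38 RPKM in old P. leucopus, against 1.58 and 0.595 RPKM in P. maniculatus. The log2 difference was 3.32 ± 0.42 (adjusted p = 3.57e-07 in edgeR). KCNH5, an EAG channel of neurons, lay between 13.6 and 49.7 CPM against 2.33 and 5.48 CPM, with no overlap between species in CPM (2.42 ± 0.20, edgeR adjusted p = 5.30e-10). KCNJ2, the Kir2.1 strong rectifier, lay between 10.3 and 43.4 CPM against 1.51 and 7.09 CPM, also without overlap in CPM (1.64 ± 0.23, edgeR adjusted p = 1.99e-06). Gene length in P. leucopus was 3.10 times that in P. maniculatus for KCNH5 and 4.28 times for KCNJ2. Overlap per length, and the share of all genes without overlap, were not computed. KCNK10 (1.51 ± 0.38, adjusted p = 0.00152) was past the threshold over both ages but not in the young animals alone (0.75, adjusted p = 0.263). For KCNH6, an ERG channel (1.27 ± 0.31, 0.00121), the call was lost without length (0.66, 0.0622). KCNMA1 was higher too, by 1.26 ± 0.19 (3.47e-06).

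KCNG2 was lowest in P. leucopus relative to P. maniculatus. Its values of 3.46 to 13.6 CPM in P. leucopus overlapped those of 4.73 to 33.8 CPM in P. maniculatus, and it differed by -2.06 ± 0.25 per length (edgeR adjusted p = 1.86e-07) and by -1.19 without length. The other members with the largest differences in this direction depended on length. KCNIP4, a KChIP subunit, has 13857 bases in P. leucopus and 1053 in P. maniculatus, and its difference of -1.60 ± 0.19 per length was 1.28 without length. KCNE3 (1986 and 318 bases) turned from -1.46 ± 0.23 to 0.33. KCNMB4 (-1.49 ± 0.27) and KCND3 (-1.40 ± 0.31) fell short of the threshold without length, at -0.54 and -0.24. In all, 6 of the 36 members called changed sign without length, the other 4 being KCNIP1, KCNK13 and, named for this reason alone, KCNA4 and KCNC4. The share of all genes that changed sign was not computed.

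All 4 Kv7 members tested had positive values in the species comparison, and 3 were called, among them KCNQ3 by 0.88 ± 0.21 (edgeR adjusted p = 9.31e-04). KCNQ3 ran from 51.2 to 191 CPM in P. leucopus, against 12.4 to 45.9 CPM in P. maniculatus, without overlap in CPM. CPM is not divided by gene length, which for KCNQ3 was 3.62 times as large in P. leucopus. Overlap per length was not computed. Of the EAG, ERG and ELK channels 3 of 6 were called higher, KCNH7 among them (0.81 ± 0.34, 0.0471), a call that held in 10 of 24 fits that each left out 1 animal. The 4 KChIP genes all had negative values per length, and KCNIP1 (-0.46 ± 0.18, edgeR adjusted p = 0.0360) and KCNIP4 were called. Without length all 4 were positive, at 0.92 for KCNIP1, 0.09 for KCNIP2, 0.93 for KCNIP3 and 1.28 for KCNIP4. Of the SK channels, KCNN3 was higher in P. leucopus (0.96 ± 0.18, 6.97e-05) and KCNN2 lower (-0.39 ± 0.14, 0.0239), and the related KCNN4 was higher (1.08 ± 0.31, 0.00494). KCNJ10 was higher by 0.78 ± 0.24 (0.00792) and KCNC1 by 0.75 ± 0.29 (0.0286), the latter not without old P. leucopus 4 or 6. KCNK6, a tandem-pore channel with 0.471 to 1.90 CPM in P. leucopus and at most 0.454 CPM in P. maniculatus, was below the limit in the latter and was not counted.

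**Figure D5:**
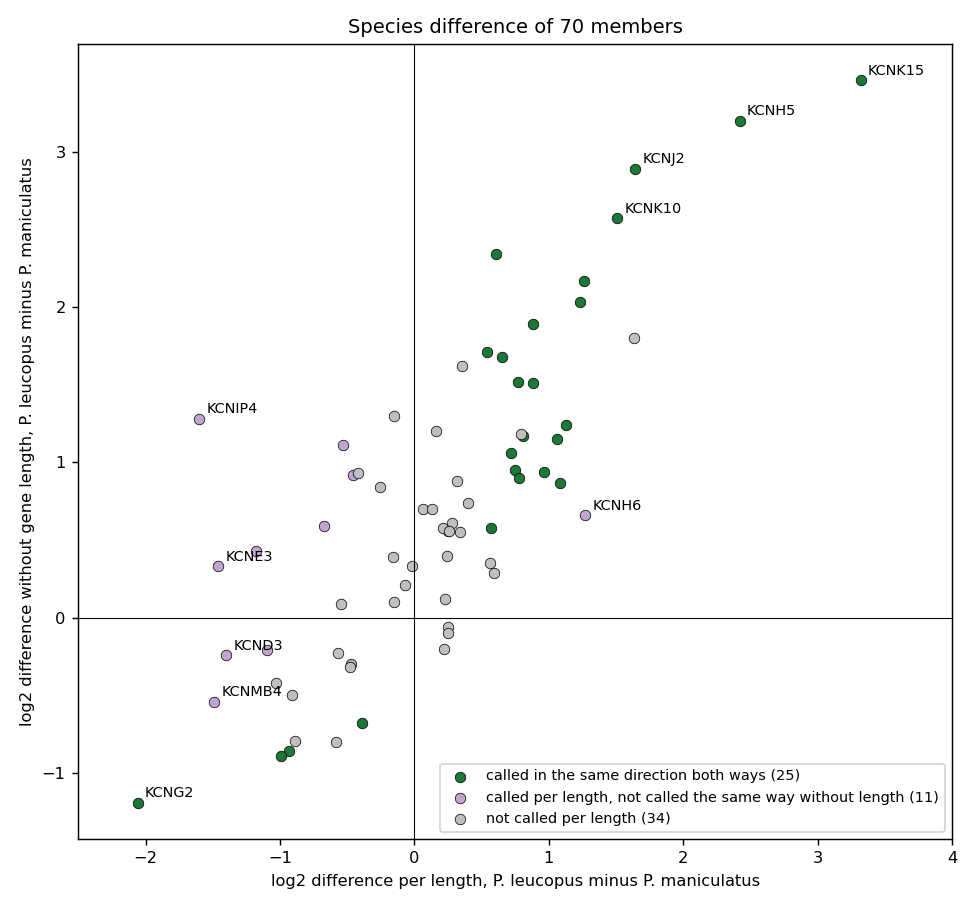
Log2 difference of P. leucopus minus P. maniculatus per gene length (horizontal) and without length (vertical) for 70 members, each a point. Green marks the 25 members called in the same direction both ways, purple 11 called per length only in that direction, and grey 34 not called per length. KCNK15 and KCNH5 lie far to the upper right, and KCNIP4 at -1.60 and 1.28.

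The coordination index Pc was then taken for each member: its Pearson correlations with all other transcripts were taken once over the young and once over the old group, and Pc is the correlation between these sets of values. A Pc near 1 means that a gene kept its relations to other genes, and a negative one that they were inverted. In P. leucopus the median of the 76 members was 0.217 ± 0.0875 (jackknife SE over 12 animals), against 0.193 for all transcripts of at least 1 CPM, and 10 members (13.2%) were negative against 22% of transcripts. In P. maniculatus the median of the 75 members was 0.198 ± 0.104 against 0.184, and 13 members (17.3%) were negative against 19.5%. These medians lay within their error of those of all transcripts. Without young P. leucopus 5 the median was 0.130, and without young P. maniculatus 3 it was 0.131.

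In P. leucopus the lowest Pc belonged to KCNH8, an ELK channel (-0.406 ± 0.288), to KCNA6 (-0.348 ± 0.117) and to KCNAB1, a Kv beta subunit (-0.278 ± 0.201). The highest belonged to KCNN3 (0.433 ± 0.260), KCNN1 (0.428 ± 0.105) and KCNAB2 (0.394 ± 0.168). KCNA6 kept a negative value, between -0.392 and -0.262, whichever animal was left out. In P. maniculatus KCNQ3 (-0.220 ± 0.397) and KCNK13 (-0.193 ± 0.322) were among the lowest, each within 1.5 standard errors of 0. The highest were KCND3 (0.548 ± 0.157), KCNA1 (0.548 ± 0.169) and KCNMB4 (0.526 ± 0.227). With 6 animals in a group these values are imprecise, and members at opposite ends were not tested against each other.

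Genes of other symbols that work with these channels were read in the same fits. Of 25 listed partners 23 were tested, and 0 were called for age in either species or for the interaction, with 7, 3 and 8 of them (30.4%, 13% and 34.8%) at an unadjusted p under 0.05, against 18.7%, 10.3% and 15.1% of all genes. DESeq2 called 1 of them for age in P. leucopus and 0 in the other tests. HCN4, a pacemaker channel, differed by -1.25 ± 0.42 with age in P. leucopus (edgeR adjusted p = 0.163), and CNTNAP2, which places Kv1 channels at the axon, by -0.44 ± 0.15 (0.158). Between species 15 partners (65.2%) were higher and 2 (8.70%) lower in P. leucopus per length, against 29.6% and 30.0% of all genes. In all, 17 partners were thus called over both ages, against 18 in old animals alone and 8 in young animals alone, and 15, none of them lower, without length. Of all genes, 59.6%, 51.5%, 42.7% and 68.5% were called in the same order. The partners were not tested for a difference between the ages in this respect. CNTNAP2 was higher by 1.06 ± 0.11 (1.60e-08) and DPP6, a Kv4 partner, by 0.92 ± 0.14 (3.39e-06), while the calmodulin gene CALM3 was lower (-0.82 ± 0.15, 5.80e-05).

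Positions are given here for a few named members, and the spread of all called members over the genome was not examined. In the assembly of P. maniculatus, HU_Pman_2.1, KCNK15 lies on chromosome 4 from 138719337 to 138724737, KCNH5 on chromosome 14 from 44501042 to 44794867, KCNJ2 on chromosome 8 from 96776026 to 96777309 and KCNG2 on chromosome 19 from 69904431 to 69930836. KCNJ14, with the lowest p for age in P. leucopus, lies on chromosome 1 from 40773994 to 40776551, and KCNT1 on chromosome 4 from 14376678 to 14437704. Counts refer to all annotated exons of a gene and do not tell isoforms apart.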

How the data were processed

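RNA from brain of 24 deer mice was sequenced, with 6 animals in each of 4 groups by stock and age. Per the submitters' processing notes and the study's methods, the authors trimmed reads with Trim Galore 0.4.5, aligned them with STAR 2.7.2b and counted them with featureCounts of Subread 1.5.3, against Pero_0.1 for P. leucopus and HU_Pman_2.1 for P. maniculatus. The deposited values are estimated counts that need not be whole, since reads with several hits or overlapping genes were shared between them. The library kit marks strand but counting ignored it, so overlapping and antisense genes share reads. The deposited counts are not normalized, and the CPM values that the authors made for their correlations were not used. Columns of other samples that were not used numbered 0.

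The row of P. maniculatus that pools genes without a name (13.1% of counts) was left out. CPM and RPKM were computed on the remaining totals. Counts were rounded and tested with edgeR 4.0.16 in R 4.3.3 (filterByExpr, TMM, quasi-likelihood test, Benjamini-Hochberg over all genes tested, threshold 0.05), by age within species, and over 24 animals for the interaction and the species difference. The last had log gene length in its offset. Genes were matched by symbol. KCNE1L is an older name of KCNE5, and these rows were kept apart. Of the 81 members kept, 78 are in the P. leucopus and 79 in the P. maniculatus table, and edgeR's filter on low counts left 75 and 72. Standard errors were derived from the quasi-likelihood F statistic. DESeq2 1.42.0, exact permutation, RLE size factors, total counts, no filter, summed near-identical libraries, the unnamed row kept and each animal left out were alternatives, as were log2 and Spearman versions of Pc. Leaving out the 3 libraries rich in cerebellar markers, and totals per length without TMM, were added after seeing the data. The fits were tested on simulated data with 200 genes changed 2-fold, of which 54.5% and 59.5% were called for age in P. leucopus and P. maniculatus, 40.0% for the interaction and 77.5% for species. The changed genes were drawn from all genes tested, with independent noise, so these shares are not those of the members. Pc used Python 3.11.15 with NumPy 2.4.6, on transcripts with a defined correlation, and jackknife errors over 12 animals.

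The members, the subfamilies and the lists of markers and partners were chosen with earlier results of these data known. Named were members past the threshold for age or the interaction (there were 0), the 5 members with the lowest p in each age test and in the interaction, the highest member of each subfamily in each species, the 5 largest species differences in each direction, the 3 highest and lowest Pc in each species, and a list of well-known members. Others are said in the text to have been named after their values were seen, or are counted members of a small group. A gene of the same prefix, and some genes that the rule or a list would name, are not reported here, though the latter count in the fits, sums and counts of members. Labels do not say that animals were littermates or pairs.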

Additional observations from a re-analysis of the deposited data

Results flagged for a closer look

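In 192 groups of 6 animals, formed by the named members in each species and age, an animal far from the 5 others was found 13 times (6.77%). A chance rate of about 1 in 20 holds for independent groups of normally distributed values. The groups here share the same animals, so 6.77% cannot be read against that rate. Of the 13 values, 7 belonged to young P. maniculatus 3, one of the libraries rich in cerebellar granule cell markers (2105 CPM). There KCNC1 measured 554 CPM against 104 to 181 CPM in the 5 others, KCND2 146 against 50.5 to 81.9 CPM, and KCNIP4 108 against 40.5 to 58.4 CPM. In the same animal KCNK1 measured 250 against 88.8 to 122 CPM, KCNK10 14 against 1.29 to 3.96 CPM, KCNK12 43.6 against 6.89 to 13.8 CPM, and KCNJ13 14.1 against 1.54 to 5.43 CPM beside a choroid plexus sum of 5332 CPM. KCNJ13 was also far above the others in young P. leucopus 3, with 29.0 against 0.661 to 4.47 CPM. The part of cell mixture in these values was not tested.

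The remaining 5 values were single genes. KCNK10 measured 5.52 CPM in old P. maniculatus 2 (1.21 to 2.64 CPM in the others), where the granule cell sum was 389 CPM. KCNK13 measured 14.2 CPM in old P. leucopus 3 (4.70 to 7.53 CPM), KCNN4 12.7 CPM in old P. leucopus 1 (at most 3.78 CPM), KCNMB2 6.74 CPM in young P. maniculatus 5 (2.78 to 3.60 CPM), and KCNT1 197 CPM in young P. leucopus 5 (78.9 to 116 CPM).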

How the results depend on the processing

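The count of members called for age in P. leucopus, 0 as reported, was 3 with DESeq2 (KCNJ14 and KCNMB2 lower, KCNT1 higher) and ranged from 0 to 8 when each animal was left out, with the 8 without young animal 5. It was 0 in each of the other settings tried. Over all genes, 863 were called by DESeq2 and 963 without young animal 5, with 20 without old animal 3 and 1 without young animal 2. In P. maniculatus and for the interaction it was 0 in every setting. The cause was not tested. For the species difference the count ranged from 32 to 40 with an animal left out (45.7% to 57.1% of members, against 57.2% to 61.1% of all genes). It was 27 in young and in old animals alone (38.6% in each), against 42.7% and 51.5% of all genes. Without length it was 40 (57.1%), against 68.5% of all genes, and KCNIP4 (1.28) and KCNE3 (0.33) turned sign. The median Pc of P. leucopus ranged from 0.130 to 0.223 with an animal left out. Sums over all members moved by less than 1 SD in each setting tried. No paired analysis was possible because the labels give no replicate numbers or pairing. Depth limits members with few counts, such as KCNE3 and KCNMB1, and the shallower P. maniculatus libraries more.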

Other observations

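Some members that the naming rule did not pick also stood apart in single animals, and were chosen here with their values in view. KCNV1, a silent Kv subunit, lay between 1.52 and 7.03 CPM in young P. leucopus 1 to 4 and at 1.90 CPM in old animal 4, against 23.2 to 73.3 CPM in the other 7 of that species, and at 3.33 CPM in young P. maniculatus 3. KCNG4, another silent subunit, measured 46.7 CPM in young P. maniculatus 3 and at most 7.83 CPM in the other 11 of that species. KCNJ12, a strong inward rectifier, measured 75.5 CPM or more in old P. leucopus 4 and 6 and at most 25.6 CPM in the other 10, and 85.2 CPM in young P. maniculatus 3, with at most 32.5 CPM in the others of that species. Old P. leucopus 4 and 6 and young P. maniculatus 3 are the libraries rich in cerebellar granule cell markers. In young P. leucopus 1 to 4, named for KCNV1, these markers summed to between 128 and 381 CPM. The cortical and hippocampal markers summed to between 28.0 and 311 CPM in those 4 and to 665 CPM in old animal 4. In the other 7 of that species they summed to between 527 and 2017 CPM, and in young P. maniculatus 3 to 1031 CPM. The part of cell mixture was not tested.

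KCNS1, a silent Kv subunit, measured 43.4 and 44.9 CPM in old P. maniculatus 3 and 4, the nearly identical pair, and 32.1 CPM in young P. maniculatus 4, while the other 9 of that species lay between 1.39 and 13.9 CPM. In P. leucopus it lay between 1.23 and 71.1 CPM.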
